A study of Zea mays with 24 samples.

Results

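Levels of 3 genes of the 14-3-3 family were followed through leaves of maize (Zea mays): Zm00001d007446, Zm00001d003401 and Zm00001d015779. They were chosen by gene identifier, as 3 of the 46430 genes in the expression table. All 3 stand among the genes that the study called from these same libraries, so their calls below are no independent evidence. The table describes 24 genes as 14-3-3 proteins by name or description, so 21 others were available beside them.

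14-3-3 proteins are small acidic proteins that pair into dimers and clasp phosphorylated serine or threonine sites on other proteins. Binding can switch an enzyme on or off, hold a protein in the cytosol or bring partners together. In plants they activate the proton pump of the plasma membrane, inhibit nitrate reductase and bind transcription factors of abscisic acid (ABA) signaling, so they are studied in drought, stomatal and nitrogen responses.

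The libraries came from the second fully expanded leaf from the top, 1 library per plant, and water was withheld for drought once seedlings had reached the fifth leaf stage. Y7-1 carries the maize gene ZmPMP3g, for a small membrane protein, under a tripled CaMV 35S promoter, and Y478 is the untransformed inbred line Ye478 from which it was made. Y7-1 is 1 line of the fourth transgenic generation with 1 inserted construct, so the inserted gene and anything else that separates this line from Y478 cannot be told apart. Each line was grown under 4 treatments with 3 plants each, which gave 8 groups and 24 libraries. Moderate drought meant a pot mix moisture of at most 50%, against 70% under control, with leaves sampled 9 days later than the first day at 50%. Exogenous ABA was a leaf spray at 15 mg/L, given under moderate drought (moderate drought-exogenous ABA) or under control watering (control-exogenous ABA).

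Levels are given in FPKM, a read level scaled to gene length and library size. The libraries held 15762667 to 18428177 reads assigned to genes (median 17248473), and 1 read on a gene of 1000 bases was worth 0.0502 to 0.0734 FPKM. One library stood apart by the line-specific genes it held. Of 60 genes read in Y7-1 alone and 45 read in Y478 alone, the library labelled as replicate 3 of Y7-1 under moderate drought held 0 and 45. The other 11 Y7-1 libraries each held 60 and 0. Such genes had at least 1 FPKM in at least 11 of the 12 libraries of their line. In the other line they had under 0.1 FPKM in at least 11 of 12. Under this rule the counts of the other 11 Y7-1 libraries were fixed once 1 library was the exception, so they are no separate check. The 12 Y478 libraries held 0 of the 60 and 43 to 45 of the 45. Differences that use the library labelled replicate 3 are therefore given with and without it, while exact permutation tests and marker averages are given with it. The gene named as homolog of ZmPMP3g (Zm00001d024778, NaCl stress protein1) had 80.1 to 1634 FPKM in the other 11 Y7-1 libraries, 3435 FPKM in that library and 195 to 3233 FPKM in Y478, and whether reads of the inserted copy count to it is not known. Mesophyll markers were read as in leaf: 15 of 18 had at least 0.5 FPKM in at least 3 libraries, and the sum of the 18 ranged from 3432 to 14470 FPKM.

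Zm00001d007446, described as a 14-3-3-like protein, lies on chromosome 2 from 231918577 to 231921582 on the minus strand of the B73 v4 build that the table's contig names give. Its gene model counts 1969 bases. Zm00001d003401, named general regulatory factor1 and described as GF14-6, lies on the same chromosome from 43088493 to 43092367 on the minus strand, with 3745 counted bases. GF14 stands for G-box factor 14-3-3, from its discovery in complexes on the G-box of plant promoters. Zm00001d015779, described as a GF14 omega protein, lies on chromosome 5 from 118773282 to 118856166 on the plus strand. Its 2193 counted bases are spread over 82885 bases of genome, while the other members span 3006 and 3875 bases. How reads that fit several 14-3-3 copies were counted is not given in the sources used here, so levels of near copies are uncertain.

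Zm00001d007446 was the member with the highest level, and it was lower in Y7-1 than in Y478. Under control the 3 Y7-1 libraries had 72.4, 57.9 and 59.4 FPKM, against 189, 155 and 177 FPKM in Y478. Under control-exogenous ABA they had 61.8, 42.0 and 33.3 FPKM, against 128, 127 and 193 FPKM in Y478. No Y7-1 library reached the lowest Y478 library in either treatment. In limma, a moderated linear model fitted across all tested genes with Benjamini-Hochberg adjustment, the log2 fold change was -1.45 (SE 0.26, adjusted p = 0.0014) under control and -1.72 (SE 0.26, adjusted p = 0.000261) under control-exogenous ABA. A gene is called here at an adjusted p under 0.05, and 12.2% and 22% of all tested genes were called in these comparisons. In bulk leaf RNA, fewer cells of a type and less RNA per cell cannot be told apart.

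The same gene was lower in Y7-1 under drought. Under moderate drought-exogenous ABA the Y7-1 libraries had 97.0, 112 and 108 FPKM, against 340, 239 and 365 FPKM in Y478, with no overlap. The log2 fold change was -1.55 (SE 0.26, limma adjusted p = 0.000644), where 28.1% of tested genes were called. Under moderate drought alone Y7-1 had 102, 121 and 185 FPKM, against 290, 182 and 220 FPKM in Y478. The groups overlapped only through the 185 FPKM of the library labelled replicate 3, and the difference of -0.78 did not pass (SE 0.26, limma adjusted p = 0.116), where 1.16% of tested genes were called. Without that library it was -1.02 (SE 0.26, limma adjusted p = 0.0154), where 12.8% were called.

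Averaged over the 4 treatments, Zm00001d007446 was lower in Y7-1 by -1.37 on the log2 scale (SE 0.13, limma adjusted p = 2.30e-07), where 48.9% of tested genes were called. The mean difference was negative in all 4 treatments. An exact two-sided permutation of lines within treatments, over 160000 arrangements, gave p = 2.5e-05, and without the library labelled replicate 3 the average was -1.44, where 51.8% of tested genes were called.

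Markers of other leaf cells also differed between the lines. The 10 tested of 14 bundle sheath markers averaged 6.55 to 6.94 on the log2(FPKM + 0.5) scale in Y7-1 control libraries, against 7.62 to 7.94 in Y478. Of them 3 were called lower and 0 higher in Y7-1 under control, beside the 12.2% of all tested genes. The 15 tested of 18 mesophyll markers averaged 6.18 to 6.40 in Y7-1 and 6.61 to 6.69 in Y478, with 4 called lower and 0 higher. Epidermis and wax markers went the other way: the 25 tested of 41 averaged 2.84 to 3.14 in Y7-1 and 2.29 to 2.61 in Y478, with 2 called higher and 0 lower. Of 10 tested phloem markers 1 was called higher and 0 lower, and of 21 tested senescence markers 2 were higher and 2 lower. Without the library labelled replicate 3 the counts were 4 lower and 2 higher for mesophyll and 4 higher and 0 lower for epidermis and wax, beside 15.1% of all tested genes, and those of bundle sheath, phloem and senescence did not change. The epidermis and wax markers Zm00001d029350, Zm00001d046621 and Zm00001d037328 passed the filter through Y7-1 alone, and the bundle sheath marker Zm00001d003090 through Y478 alone. They entered these averages and tests through the line where they are higher, so their line differences support nothing. The part of these cells in the line difference of Zm00001d007446 was not tested.

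**Figure D1:**
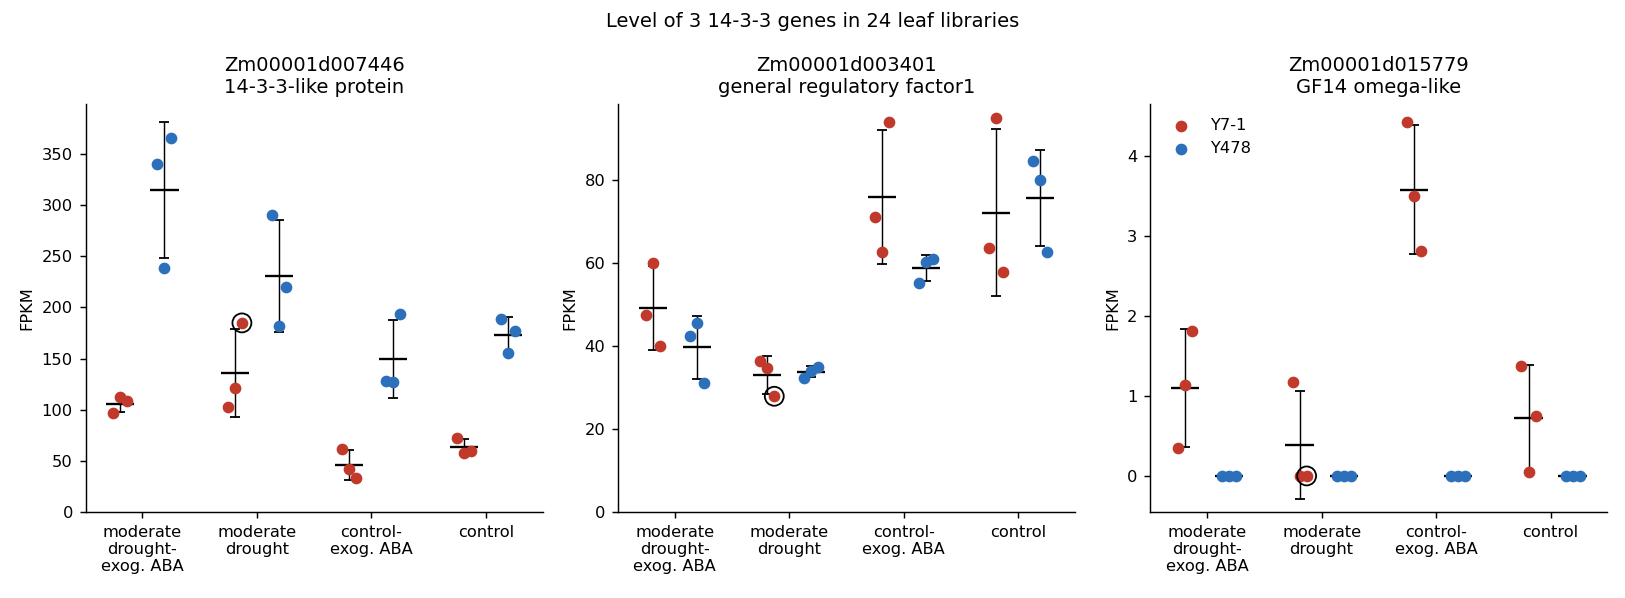
FPKM of each gene in each of the 24 libraries (points), by treatment and line, with the mean (bar) and SD (error bars) of 3 libraries a group; the ringed point is the library labelled Y7-1 moderate drought replicate 3. For Zm00001d007446 the Y7-1 points lie below the Y478 points in each treatment apart from the ringed one at 185 FPKM, Zm00001d003401 is lower under both drought treatments in both lines, and Zm00001d015779 is at 0 in every Y478 library.

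Zm00001d007446 was higher under drought in the ABA-sprayed plants of both lines. In Y7-1 the moderate drought-exogenous ABA libraries (97.0 to 112 FPKM) lay above the control-exogenous ABA libraries (33.3 to 61.8 FPKM), with a log2 fold change of 1.24 (SE 0.26, limma adjusted p = 0.00483) and 11.8% of tested genes called. In Y478 the corresponding libraries had 239 to 365 FPKM under drought, against 127 to 193 FPKM without it, and a log2 fold change of 1.08 (SE 0.26, limma adjusted p = 0.0125), with 9.66% called. Neither pair of groups overlapped. The Y478 call rested on single libraries. Its adjusted p was 0.0755 without Y478 moderate drought-exogenous ABA replicate 3, 0.0680 without control-exogenous ABA replicate 1 and 0.0519 without control-exogenous ABA replicate 2.

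Without ABA the drought difference of Zm00001d007446 did not pass in either line. In Y7-1 it was 1.06 (SE 0.26, limma adjusted p = 0.0592), from 102 to 185 FPKM under moderate drought and 57.9 to 72.4 FPKM under control, where 0.713% of tested genes were called. Without the library labelled replicate 3 it was 0.82 (SE 0.26, limma adjusted p = 0.220). It passed when Y7-1 moderate drought replicate 1 was left out (adjusted p = 0.0204) or Y7-1 control-exogenous ABA replicate 1 or 3 (adjusted p = 0.0427 and 0.0323). In Y478 the difference was 0.39 (SE 0.26, limma adjusted p = 0.421), with 182 to 290 FPKM under moderate drought, against 155 to 189 FPKM under control, and the groups overlapped.

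Over both lines and both ABA states, Zm00001d007446 was higher under drought by 0.94 on the log2 scale (SE 0.13, limma adjusted p = 3.61e-05; exact permutation p = 2.5e-05), and it was higher in all 4 pairs of groups. Of all tested genes 27.9% were called in this average, and without the library labelled replicate 3 it was 0.88 (SE 0.12, limma adjusted p = 5.66e-05). ABA gave no call in any comparison, where 0.00417% to 0.163% of tested genes were called. The differences were -0.50 in Y7-1 and -0.32 in Y7-1 under drought, and -0.24 and 0.45 in Y478 (SE 0.26 each), and their adjusted p-values in limma were 0.453 to 0.899. The one in Y7-1 under drought was -0.07 (SE 0.26, limma adjusted p = 0.969) without the library labelled replicate 3.

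In order of mean level, Zm00001d007446 was highest in Y478 under moderate drought-exogenous ABA (314.8 ± 66.9 FPKM, SD, n = 3) and lowest in Y7-1 under control-exogenous ABA (45.7 ± 14.6). The groups between were Y478 moderate drought (230.8 ± 54.9), Y478 control (173.4 ± 17.1), Y478 control-exogenous ABA (149.5 ± 37.9), Y7-1 moderate drought (135.9 ± 43.4), Y7-1 moderate drought-exogenous ABA (105.7 ± 7.78) and Y7-1 control (63.2 ± 7.99). Neighbours in this order overlapped, except Y7-1 moderate drought-exogenous ABA and Y7-1 control. Without the library labelled replicate 3 the Y7-1 moderate drought mean was 111.5 ± 13.1 (n = 2), and that group then lay below Y478 control-exogenous ABA without overlap.

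Zm00001d003401 was lower under drought, with like levels in both lines. In Y7-1 the moderate drought libraries had 36.5, 34.7 and 27.9 FPKM, against 63.7, 95.2 and 57.8 FPKM under control. In Y478 they had 32.4, 34.1 and 35.0 FPKM, against 84.7, 80.0 and 62.7 FPKM under control. All 6 drought libraries lay below all 6 control libraries. The log2 fold change was -1.09 in Y7-1 (SE 0.21, limma adjusted p = 0.0236) and -1.14 in Y478 (SE 0.21, limma adjusted p = 0.00445), where 5.98% of tested genes were called in Y478. The Y7-1 call was lost without the library labelled moderate drought replicate 3, at -0.98 (SE 0.23, adjusted p = 0.105, where 0.0834% of genes were called), and without Y7-1 control replicate 2, at -0.88 (adjusted p = 0.0602).

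With ABA the drought difference of Zm00001d003401 was smaller in value and did not pass. Y7-1 had 47.5, 60.1 and 40.1 FPKM under moderate drought-exogenous ABA, against 71.1, 62.7 and 94.0 FPKM under control-exogenous ABA. Y478 had 42.4, 45.6 and 31.1 FPKM under drought with ABA, against 55.3, 60.4 and 61.1 FPKM under control-exogenous ABA. The groups did not overlap in either line. The log2 fold changes were -0.62 (SE 0.21, limma adjusted p = 0.0587) and -0.58 (SE 0.21, limma adjusted p = 0.0837), and the Y7-1 one passed without Y7-1 control replicate 2 (adjusted p = 0.0395). Whether the drought difference itself depends on ABA was not tested. Averaged over lines and ABA, Zm00001d003401 was lower under drought, with a log2 fold change of -0.86 (SE 0.10, limma adjusted p = 1.08e-05), and it was lower in all 4 pairs of groups. The exact permutation p of 1.25e-05 is the smallest that 160000 arrangements can give, and without the library labelled replicate 3 the average was -0.83, where 26.9% of tested genes were called.

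Epidermis and wax markers were also lower under drought in plants without ABA. The 25 tested of 41 averaged 1.79 to 2.53 on the log2(FPKM + 0.5) scale in Y7-1 under moderate drought, against 2.84 to 3.14 under control, with 2 called lower and 0 higher (background 0.713%). Without the library labelled replicate 3, 0 were called in either direction (background 0.0834%). In Y478 they averaged 2.02 to 2.27 under moderate drought, against 2.29 to 2.61 under control, with 4 called lower and 0 higher (background 5.98%). With ABA their levels overlapped, at 2.38 to 3.23 under drought and 2.43 to 2.98 under control watering in Y7-1, and 2.10 to 2.61 under drought and 2.23 to 2.61 under control watering in Y478.

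The mean of the 15 tested mesophyll markers was lower under drought with and without ABA, while calls of single markers went both ways. In Y7-1 they averaged 5.82 to 6.09 under moderate drought and 6.18 to 6.40 under control, and with ABA 5.87 to 6.12 under drought and 6.23 to 6.53 under control watering. In Y478 they averaged 6.02 to 6.40 under moderate drought and 6.61 to 6.69 under control, and with ABA 5.75 to 6.55 under drought and 6.69 to 6.78 under control watering. Of the 15 markers 0 were called with drought in Y7-1, where only 0.713% of all tested genes were called. With ABA 2 were higher and 4 lower in Y7-1 (background 11.8%). In Y478 1 was higher and 1 lower (background 5.98%), and with ABA 1 was higher and 4 lower (background 9.66%, or 11.6% without the library labelled replicate 3, where the counts were the same). Phloem markers went the other way in Y478. The 10 tested averaged 3.55 to 3.87 under moderate drought and 3.40 to 3.44 under control. With ABA they averaged 3.96 to 4.17 under drought and 3.46 to 3.91 under control watering. In Y7-1 they overlapped, at 3.04 to 4.03 and 3.36 to 3.73, and with ABA at 3.43 to 3.48 and 3.22 to 3.45. Marker averages of Y7-1 under moderate drought include the library labelled replicate 3 and were not computed without it. What that library adds to the overlap without ABA is therefore not known. Bundle sheath markers (10 tested) were lower under drought in ABA-sprayed Y7-1, at 6.43 to 6.72 against 7.10 to 7.36 under control watering. Without ABA they overlapped in Y7-1, at 6.59 to 7.47 under drought and 6.55 to 6.94 under control. In Y478 they overlapped too, at 7.45 to 7.66 and 7.62 to 7.94, and with ABA at 7.76 to 8.04 and 7.59 to 8.25. The part of epidermis, mesophyll, bundle sheath or phloem in the drought differences of Zm00001d003401 and Zm00001d007446 was not tested.

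Between the lines Zm00001d003401 gave no call in any treatment. The log2 fold changes of Y7-1 against Y478 were -0.09 under control, 0.34 under control-exogenous ABA, -0.04 under moderate drought and 0.31 under moderate drought-exogenous ABA (SE 0.21 each), and the adjusted p-values in limma were 0.246 to 0.939. The average was 0.13 (SE 0.10, limma adjusted p = 0.315; exact permutation p = 0.230). The difference under moderate drought was 0.07 (SE 0.23) and the average 0.16 (SE 0.11) without the library labelled replicate 3, and neither passed. ABA gave no call for it either, with differences of -0.35 to 0.56 and adjusted p-values of 0.222 to 0.930. The highest of these, in Y7-1 under drought, was 0.44 (SE 0.23) without that library. In order of mean level, neighbouring groups overlapped throughout, with Y7-1 control-exogenous ABA highest (76.0 ± 16.2 FPKM, SD, n = 3) and Y7-1 moderate drought lowest (33.1 ± 4.54). That group had 35.6 ± 1.25 FPKM (n = 2) when the library labelled replicate 3 was left out.

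Zm00001d015779 was listed at 0 in all 12 Y478 libraries. In Y7-1 it was low and uneven. Under control-exogenous ABA it had 4.42, 3.50 and 2.81 FPKM, and under control 1.37, 0.0478 and 0.756 FPKM. Under moderate drought-exogenous ABA it had 0.344, 1.14 and 1.82 FPKM, and under moderate drought 1.17, 0 and 0 FPKM. The second 0 is the library labelled replicate 3. The gene was above 0 in 10 of 24 libraries and at or above the filter's 0.5 FPKM in 8, all of them Y7-1, so it entered the tests only through the line where it is higher. A test between the lines supports nothing for such a gene, and its line differences are given as levels and bounds.

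Whole reads recovered from the FPKM values show the depth behind these levels. The Y7-1 libraries held 660 reads of Zm00001d015779 in all and the Y478 libraries held 0. Against a limit of 3 reads over the 12 Y478 libraries, the Y7-1 level was at least 206-fold higher. By treatment it was at least 40.7-fold higher under moderate drought-exogenous ABA (138 reads), 16.0-fold under moderate drought (49 reads), 129-fold under control-exogenous ABA (381 reads) and 27.0-fold under control (92 reads). Without the library labelled replicate 3 the bound was 24.1-fold under moderate drought and 226-fold over all treatments. These bounds cover counting error only.

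Within Y7-1 the highest libraries of Zm00001d015779 were the 3 sprayed with ABA under control watering. They did not overlap with the 3 control libraries. The ABA difference there was 1.89 on the log2 scale but did not pass (SE 0.44, limma adjusted p = 0.0936), where 0.0375% of tested genes were called. They did not overlap with the moderate drought-exogenous ABA libraries either, and the drought difference with ABA was -1.45 (SE 0.44, limma adjusted p = 0.0382). That call was lost without either of Y7-1 moderate drought-exogenous ABA replicates 1 and 2 (adjusted p = 0.191 and 0.0861) or Y7-1 control-exogenous ABA replicates 1 and 2 (adjusted p = 0.0983 and 0.0884). The 12 libraries at 0 enter the spread that these tests share. When only the 2 groups were fitted, the adjusted p was 0.138. Under drought the ABA difference was 0.98 (SE 0.44, limma adjusted p = 0.298), where 0.163% of genes were called, and without replicate 1 of Y7-1 moderate drought it passed (adjusted p = 0.0353), while without the library labelled replicate 3 it was 0.69 (adjusted p = 0.664). The average over ABA was 0.72 higher with ABA on the log2 scale (SE 0.22, limma adjusted p = 0.207; exact permutation p = 0.02), where 0.0209% of genes were called, and it rests on Y7-1 alone. It was 0.64 (adjusted p = 0.215) without the library labelled replicate 3, and with array weights, which let libraries count unequally, it passed at 0.66 (adjusted p = 0.0338).

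**Figure D2:**
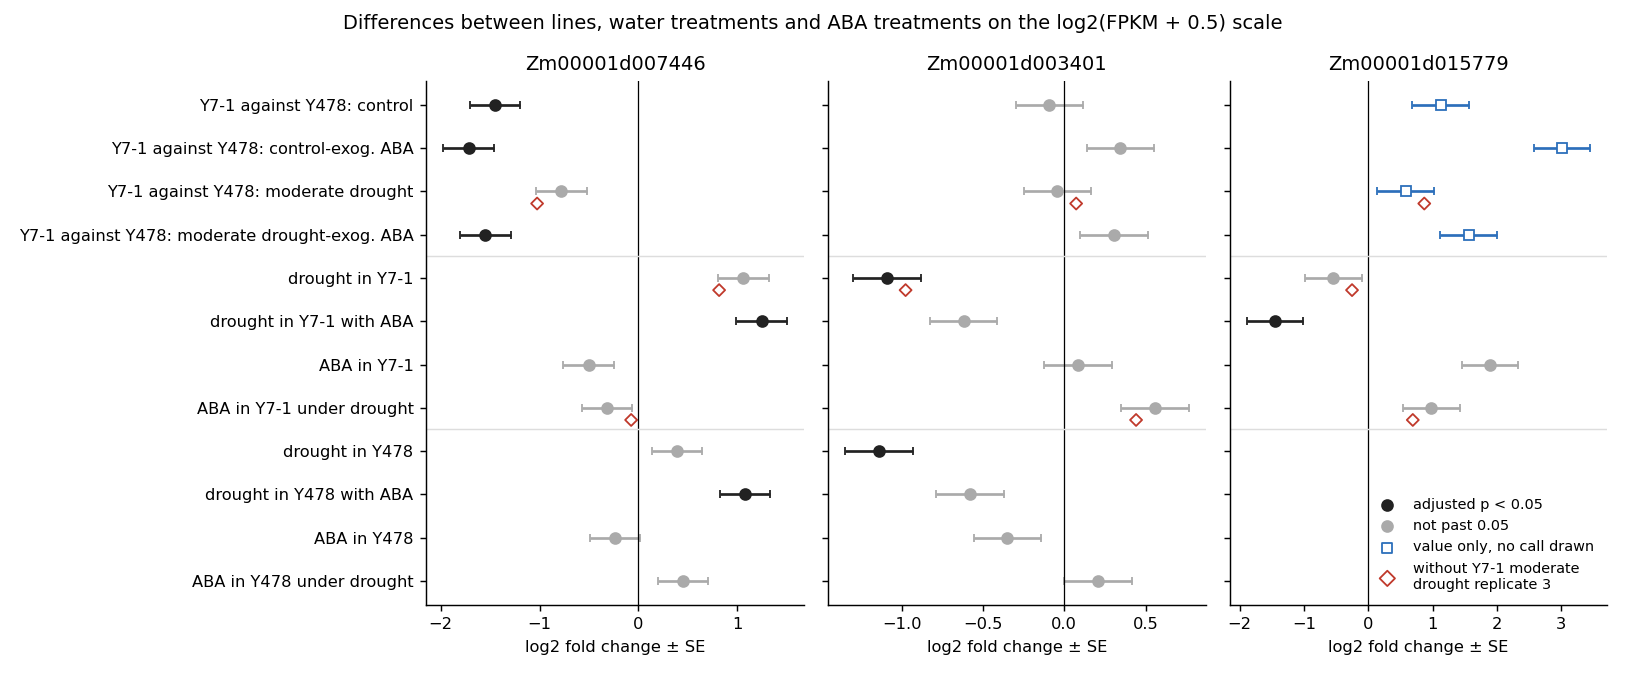
Log2 fold change ± SE of each gene in the 12 comparisons between lines, water treatments and ABA treatments, on the log2(FPKM + 0.5) scale; black points have an adjusted p under 0.05, gray points do not, blue squares are line differences of Zm00001d015779, given as values with no call, and open diamonds leave out the library ringed in the plot of levels. The line differences of Zm00001d007446 lie from -1.72 to -0.78 and the drought differences of Zm00001d003401 from -1.14 to -0.58, and comparisons within Y478 are left blank for Zm00001d015779, which is at 0 there.

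No response of Zm00001d007446 or Zm00001d003401 was shown to differ between the lines. Zm00001d015779 is at 0 in Y478, so its tests below repeat its Y7-1 response and cannot compare the lines. For the 3 genes, the 4 tests of line by treatment (drought, drought with ABA, ABA under control and ABA under drought) gave adjusted p-values of 0.408 to 1.00 in limma, where 0.00834%, 0.0292%, 0% and 0% of tested genes were called. The largest for Zm00001d007446 was -0.77 (SE 0.36), the ABA difference under drought in Y7-1 minus that in Y478, and it was -0.52 without the library labelled replicate 3. For Zm00001d003401 the drought response differed by 0.05 (SE 0.29) between Y7-1 and Y478, which was 0.16 (SE 0.31) without that library, and the drought response with ABA by -0.04 (SE 0.29). Without it the adjusted p-values of the 12 tests were 0.334 to 0.979.

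Zm00001d007446 and Zm00001d003401 moved in opposite directions with water. Their ratio in FPKM was 4.30 in Y7-1 under moderate drought (3.14 without the library labelled replicate 3) and 0.924 under control, and in Y478 6.86 under moderate drought and 2.33 under control. With ABA the ratio was 2.20 under drought and 0.631 under control watering in Y7-1, and 8.34 under drought and 2.53 under control watering in Y478. The log2 levels had a Pearson correlation of -0.86 over the 12 Y7-1 libraries, -0.80 over the 11 without the library labelled replicate 3, and -0.64 over the 12 Y478 libraries. The libraries of a group share their treatment, so these values are a description only.

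The share of the summed 14-3-3 FPKM held by Zm00001d007446 also differed between the groups. It was 15.2% ± 0.296 in Y7-1 and 37.1% ± 5.89 in Y478 under moderate drought-exogenous ABA (SD, n = 3). Under control it was 9.95% ± 0.564 in Y7-1 and 22.9% ± 2.08 in Y478. Zm00001d003401 held 4.58% to 12.1% by group. The gene with the largest mean level was neither, but Zm00001d050375, another 14-3-3-like protein, at 178.4 FPKM over all libraries, against 152.4 FPKM for Zm00001d007446.

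**Figure D3:**
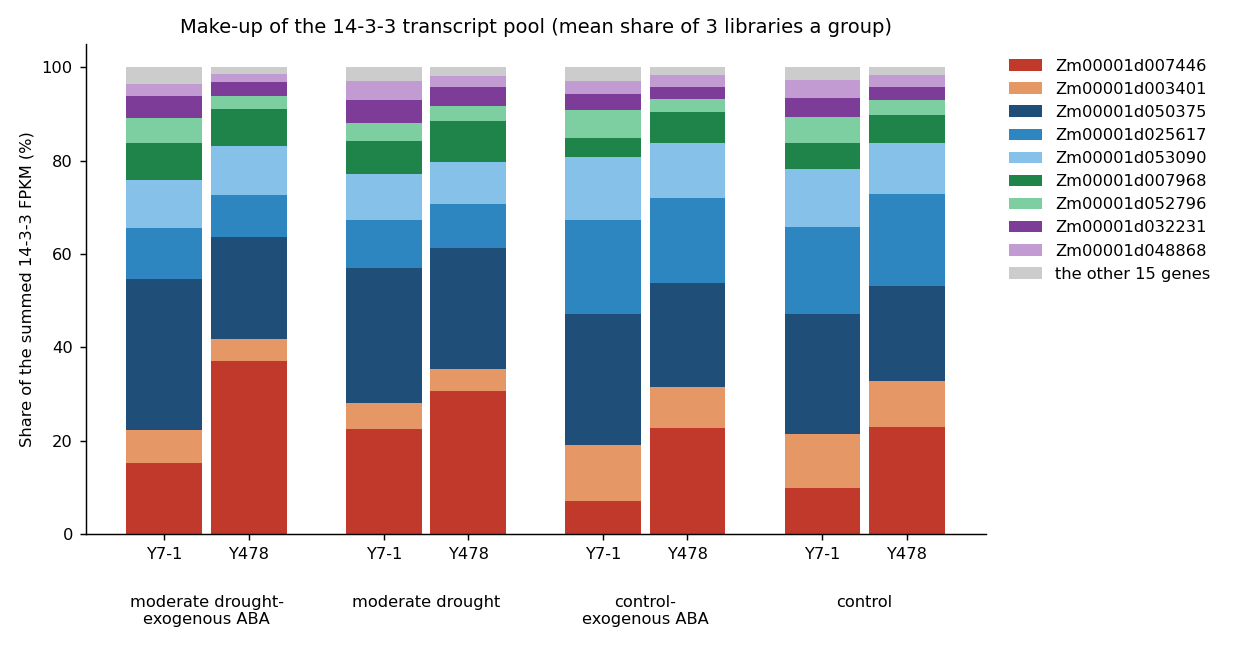
Mean share of the summed FPKM of all 24 14-3-3 genes held by each gene, by treatment and line (3 libraries a group, bars add to 100%). Zm00001d007446 (red) takes 15.2% in Y7-1 and 37.1% in Y478 under moderate drought-exogenous ABA, and 9.95% in Y7-1 and 22.9% in Y478 under control.

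Of the 21 other 14-3-3 genes 14 passed the filter, and few were called in a single comparison. Between the lines 0 of 14 were called under control and under moderate drought (background 12.2% and 1.16%). Under control-exogenous ABA 1 was higher in Y7-1 and 1 lower (background 22%), and under moderate drought-exogenous ABA 2 were higher and 1 lower (background 28.1%). Averaged over treatments, 6 were higher and 3 lower in Y7-1, which is 9 of 14 beside a background of 48.9%. Of the 6, Zm00001d035316 and Zm00001d039042 reached 0.5 FPKM in Y7-1 libraries alone, so they entered the test through the line where they are higher and their calls support nothing. When the library labelled replicate 3 was left out, 5 were higher and 3 lower in the average (background 51.8%), and Zm00001d031688 was also called higher in Y7-1 under control (background 15.1%). Under control-exogenous ABA 2 were then higher and 1 lower (background 24.8%), and under moderate drought-exogenous ABA 1 higher and 1 lower (background 30.7%). Under moderate drought 2 of the 17 tested family genes were then called (background 12.8%). They were Zm00001d007446 and 1 gene that passed the filter through 1 line alone, whose call supports nothing.

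Zm00001d025617, general regulatory factor2, was lower in each of the 4 drought comparisons. In Y7-1 it averaged 63.3 ± 14.7 FPKM under moderate drought and 117.8 ± 20.2 under control (SD, n = 3; log2 fold change -0.90, limma adjusted p = 0.0334), a call that was lost without the library labelled replicate 3 (log2 fold change -0.88, limma adjusted p = 0.122). In Y478 it averaged 69.0 ± 10.7 FPKM under moderate drought and 148.5 ± 11.8 under control (log2 fold change -1.11, limma adjusted p = 0.00353). With ABA the changes were -0.75 in Y7-1 (limma adjusted p = 0.0161) and -0.68 in Y478 (limma adjusted p = 0.0311).

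Other family genes were called in 1 or 2 comparisons. Zm00001d031688, a putative 14-3-3 protein, was higher in Y7-1 than in Y478 with ABA, at 11.3 ± 2.73 FPKM in Y7-1 and 3.25 ± 0.358 FPKM in Y478 under drought, and 6.28 ± 1.63 FPKM in Y7-1 and 2.89 ± 0.821 FPKM in Y478 under control watering (SD, n = 3). Zm00001d007968, a GF14 nu protein, was lower in Y7-1 under control-exogenous ABA (26.8 ± 11.2 FPKM in Y7-1 and 44.0 ± 4.72 FPKM in Y478) and rose with drought in ABA-sprayed Y7-1 (log2 fold change 1.09, limma adjusted p = 0.0094). Another pair of GF14 nu genes rose in that drought comparison, Zm00001d032231 by 0.59 and Zm00001d052698 by 0.81 on the log2 scale. Zm00001d036226 was lower in Y7-1 when drought was combined with ABA, at 0.172 FPKM in Y7-1 and 2.07 FPKM in Y478, levels that rest on few reads. With drought in ABA-sprayed Y7-1, 3 of 14 rose and 1 fell beside a background of 11.8%, and 4 rose and 1 fell without the library labelled replicate 3 (background 13.8%).

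A further family gene was read mainly in Y7-1, and it is named after its values were seen. Zm00001d035316, a GF14 epsilon protein, was above 0 in 9 libraries, with 0 to 7.01 FPKM in Y7-1 and 0 to 0.0595 FPKM in Y478, and it passed the filter through Y7-1 alone. In the library labelled replicate 3 of Y7-1 moderate drought it was at 0, as was Zm00001d015779.

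**Figure D4:**
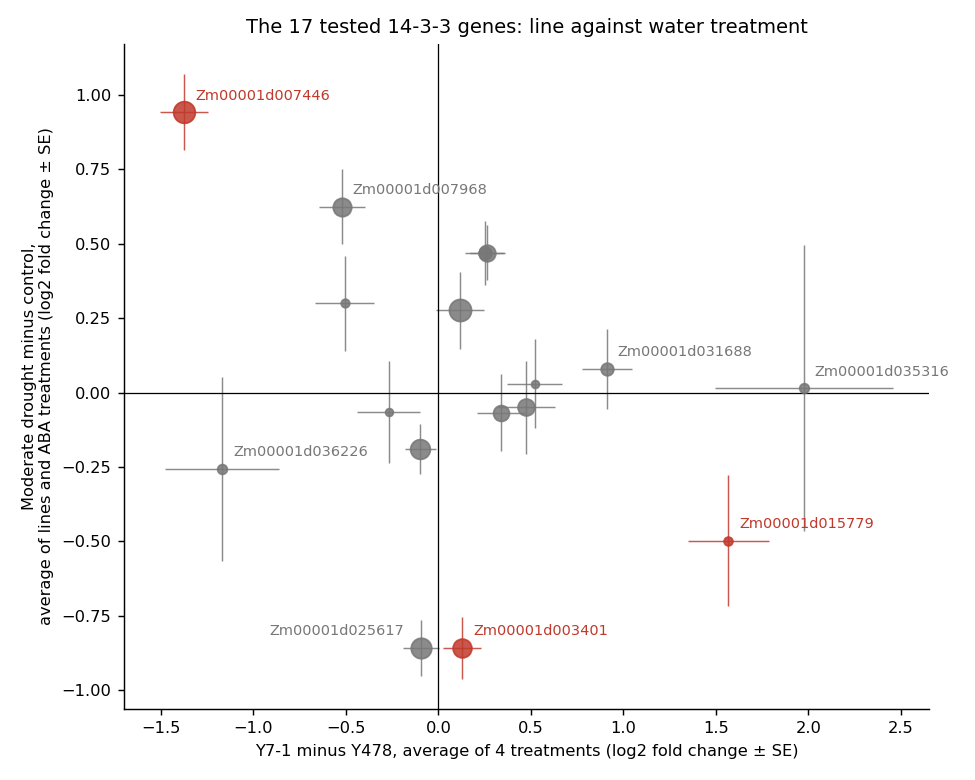
Average log2 fold change ± SE between the lines (Y7-1 minus Y478, x axis) and between water treatments (moderate drought minus control, y axis) of the 17 tested 14-3-3 genes; red points are Zm00001d007446, Zm00001d003401 and Zm00001d015779, and larger points have a higher mean FPKM. Zm00001d007446 stands at -1.37 and 0.94, Zm00001d003401 at 0.13 and -0.86 beside Zm00001d025617, and Zm00001d015779 at 1.57 and -0.50. Zm00001d015779, Zm00001d035316 and Zm00001d039042 passed the filter through Y7-1 alone, so their places along the x axis support nothing.

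Proteins that 14-3-3 proteins are known to bind in plants were listed by name or description. Plasma membrane proton ATPases, which are activated by 14-3-3 binding, had 2 of 12 tested genes lower in Y7-1 under control and 0 higher, beside 12.2% of all tested genes called, and 3 lower and 0 higher without the library labelled replicate 3 (background 15.1%). Membrane H(+)-ATPase1 (Zm00001d007775) was listed at 0 in the 3 Y7-1 control libraries, against 33.2 ± 4.85 FPKM in Y478, and passed the filter through Y478 alone. H(+)-ATPase 5 (Zm00001d014347) had 4.03 ± 3.51 FPKM in Y7-1 and 13.5 ± 0.736 FPKM in Y478. With drought in Y478 2 of 12 fell and 0 rose (background 5.98%), ATPase 2 and ATPase 4 (Zm00001d027304 and Zm00001d021000), with log2 fold changes of -1.48 and -1.15. In that comparison 3 fell and 1 rose without the library labelled replicate 3, which enters it only through the shared spread (background 7.4%).

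Enzymes of nitrogen assimilation are also partners. Of 5 nitrate reductases, which 14-3-3 binding inhibits, 1 was lower in Y7-1 under control beside a background of 12.2% (Zm00001d052139, 0.778 ± 0.567 FPKM in Y7-1 and 5.79 ± 1.24 FPKM in Y478). Of 6 glutamine synthetases, which fix ammonium, 2 were higher and 1 lower in the same comparison. These counts were the same without the library labelled replicate 3 (background 15.1%). Glutamine synthetase4 (Zm00001d017958) had 73.2 ± 15.8 FPKM in Y7-1 and 21.4 ± 2.25 FPKM in Y478, and glutamine synthetase2 (Zm00001d033747) had 5.31 ± 6.01 FPKM in Y7-1 and 30.1 ± 4.94 FPKM in Y478.

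Among enzymes of sugar metabolism, 0 of 13 trehalose-phosphate synthases were called with drought in Y7-1 without ABA (background 0.713%), and 9 of 13 rose and 0 fell in Y478 (background 5.98%). With ABA 0 rose and 1 fell in Y7-1 (background 11.8%), and 6 rose and 0 fell in Y478 (background 9.66%). The test of line by drought called 0 of these 13 genes without ABA and 0 with it, beside backgrounds of 0.00834% and 0.0292%, so their drought response was not shown to differ between the lines. Trehalose-6-phosphate synthase11 (Zm00001d018342) had 42.2 ± 31.7 FPKM under moderate drought and 2.05 ± 0.899 FPKM under control in Y478 (log2 fold change 3.58, limma adjusted p = 0.0117). Sucrose phosphate synthase1 (Zm00001d012036) was the 1 of 7 sucrose-phosphate synthases called with drought in plants without ABA. With ABA 1 rose and 2 fell in Y7-1, and 3 fell and 0 rose in Y478. In Y7-1 without ABA this gene had 80.8 ± 36.3 FPKM under moderate drought and 248.1 ± 32.7 FPKM under control, and in Y478 42.7 ± 10.0 FPKM under moderate drought and 167.0 ± 13.8 FPKM under control. The Y7-1 call was lost without the library labelled replicate 3 (log2 fold change -1.32, limma adjusted p = 0.122).

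Regulators and kinases were the next partners, beside backgrounds of 12.2% between the lines under control and 5.98% with drought in Y478. Of 9 ABI5, ABF and AREB factors, which carry ABA signals to promoters, 0 were called between the lines under control, or 1 lower in Y7-1 without the library labelled replicate 3, and 2 rose with drought in Y478. These were bZIP68 (Zm00001d050018, 3.63 ± 1.26 FPKM under moderate drought and 1.04 ± 0.142 FPKM under control) and bZIP49 (Zm00001d031790, 14.6 ± 2.72 FPKM under moderate drought and 6.83 ± 1.03 FPKM under control). Calcium-dependent protein kinases, which can phosphorylate 14-3-3 binding sites, had 2 of 40 higher and 3 lower in Y7-1 under control, or 2 higher and 5 lower without that library (background 15.1%), and CDPK3 (Zm00001d044185) was lower with 1.33 ± 0.377 FPKM in Y7-1 and 12.6 ± 1.69 FPKM in Y478. Of 20 genes listed as SnRK1 and SnRK2 kinases 1 was higher in Y7-1 under control (SnRK2 kinase 4, Zm00001d042695), and 4 rose and 0 fell with drought in Y478. This list also holds regulatory subunits, and beta-1 (Zm00001d010662) and gamma-1 (Zm00001d004006) were among those that rose.

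Of 7 phototropins and NPH3 proteins, which act in blue light signaling, 1 was lower in Y7-1 under control (background 12.2%). This NPH3 family gene (Zm00001d050959) had 0.0233 ± 0.0404 FPKM in Y7-1 and 2.01 ± 0.320 FPKM in Y478 and passed the filter through Y478 alone. Of 4 genes listed as BES1 and BZR1 factors, which carry brassinosteroid signals, 0 were called between the lines under control (background 12.2%). With drought in Y478 1 fell (background 5.98%). This gene (Zm00001d053975) is named BZR-transcription factor 5 but described as beta-amylase 8. It had 2.67 ± 0.345 FPKM under moderate drought and 4.41 ± 0.364 FPKM under control. Of 3 ACC synthases, which make the precursor of ethylene, 0 were called in either comparison (background 12.2% and 5.98%).

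Genes beside the members on the chromosome were read as well. Of the 10 genes on either side of each member, 9 or 10 were tested. Beside Zm00001d007446, 0 of 9 were called between the lines under control (background 12.2%) and 4 by the average (background 48.9%), all 4 higher in Y7-1 where the member was lower. With the library labelled replicate 3 left out, 1 was called under control and 4 by the average. The nearest of them, Adagio protein 3 (Zm00001d007445), a blue light receptor of the clock, starts at -4.99 kb from the start of the member and had an average of 1.62 (limma adjusted p = 0.00118). Beside Zm00001d003401, 2 of 9 were called under control, 1 in each direction, and beside Zm00001d015779, 1 of 10, a chloroplast small heat shock protein (Zm00001d015777, log2 fold change -1.98, limma adjusted p = 0.0404).

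Across the 24 libraries, the tested genes with a name or description whose log2 levels correlated best with a member were listed as a description only, since the libraries of a line and treatment share both. Leaving out the library labelled replicate 3 gave r of 0.873 to 0.964 for these 9 genes. For Zm00001d007446 they were probable amino acid permease 7 (Zm00001d025665, Pearson r = 0.965), monothiol glutaredoxin-S17 (Zm00001d032546, r = 0.959) and a signal transducer (Zm00001d017371, r = 0.958). For Zm00001d003401 they were a subtilisin-like protease (Zm00001d034112, r = 0.891), outer cell layer5a (Zm00001d049443, r = 0.889), a homeodomain factor of the epidermis, and MAP65-1a (Zm00001d036827, r = 0.887), which bundles microtubules. For Zm00001d015779 they were a chloroplast translation initiation factor IF-2 (Zm00001d017588, r = 0.912), the ubiquitin receptor RAD23c (Zm00001d020419, r = 0.908) and F1N21.17 (Zm00001d025423, r = 0.905). The first and the last of these had means of 1.503 and 81.7 FPKM in Y7-1 and were at 0 in Y478.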

How the data were processed

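RNA of 24 leaves was measured, 1 library per plant, 3 plants in each of 8 groups, which were taken from the labels of the deposit. The authors deposited FPKM values of 46430 genes with their position, length, name and description, made from reads that their notes align with HISAT2 2.0.5. The counter, the annotation release and the handling of reads that fit several genes are not given in the sources used here. The tissue, kit and build in the extraction and processing labels do not match the maize leaves, kit and platform of the study's methods, and the contig names of the table are those of B73 v4. FPKM times length gave whole reads for 100% of values within 0.05 of a whole number. The scale of the deposited FPKM followed a median-of-ratios factor (ratio 0.996 to 1.003 in every library) and not the total reads.

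Genes at 0.5 FPKM or more in at least 3 of 24 libraries (23978 genes) were tested as log2(FPKM + 0.5), 1 mean per group in 1 fit, with limma 3.58.1 in R 4.3.3 (eBayes with a trend, two-sided, Benjamini-Hochberg over all tested genes of a comparison). Fold changes on this scale understate changes of low genes. The averages of 12 against 12 plants were also tested by exact permutation within strata, since 3 against 3 cannot go below p = 0.1. Tables and figures used Python 3.11.15, with matplotlib 3.10.9 for plots, scipy 1.17.1, numpy 2.4.6 and pandas 2.3.3. The fit was tested on simulated data. Replicates differed by far more than read sampling (chi-square per gene 17.5 to 215). The groups' p-values rest on the spread between single plants of 1 line each.

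The members, lists and tests were chosen with earlier results of these data known, and all 3 members stand among the genes the study drew from these libraries, so their calls are no independent evidence. Named are the members, every tested 14-3-3 gene (those called, the others by count), up to 2 called genes per partner list in the line comparison under control and in the drought comparisons, the 3 genes most correlated with each member and called neighbours. Alternatives were pseudocounts of 0.1 and 1, no filter, median-ratio scaling, total-read scaling (added after seeing the data), robust eBayes, fits on the compared groups alone, array weights, limma-voom on recovered reads, the replicate number as a block and leaving out each library in turn.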

Additional observations from a re-analysis of the deposited data

How the results depend on the processing

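In the line, drought and ABA comparisons of the 3 members, no called value changed sign. Under the alternatives other than leaving out a library, 345 values kept their side of the threshold, 7 newly passed and 8 no longer passed. These counts include the comparisons of Zm00001d015779 within Y478, where it is at 0, so those values could not change. They also include its line differences, which support nothing. For Zm00001d015779, drought in ABA-sprayed Y7-1 no longer passed with a pseudocount of 0.1 (-1.83, adjusted p = 0.168), total-read scaling (-1.24, 0.0764), the compared groups alone (-1.45, 0.138) or limma-voom (-2.00, 0.0605). With the compared groups alone the drought calls of Zm00001d003401 in Y7-1 (-1.09, adjusted p = 0.316) and of Zm00001d007446 with ABA in Y7-1 (1.24, 0.0769) and Y478 (1.08, 0.0812) were also lost; this fit has fewer samples. Total-read scaling added Zm00001d007446 for drought in Y7-1 (1.14, adjusted p = 0.0413) and Zm00001d003401 for the line under moderate drought-exogenous ABA (0.56, 0.0491), and the line difference of Zm00001d003401 over all treatments then passed too (0.29, 0.0292). Array weights dropped Zm00001d003401 for drought in Y7-1 (-0.95, adjusted p = 0.103). They added Zm00001d015779 for ABA in Y7-1 (1.74, 0.0231) and for the averages over drought (-0.54, 0.0181; -0.50 and 0.100 in the reported fit) and over ABA (0.66, 0.0338), Zm00001d003401 for drought with ABA in Y478 (-0.45, 0.0231) and for ABA in Y478 (-0.44, 0.014), and Zm00001d007446 for ABA under drought in Y478 (0.64, 0.0284). The line difference of Zm00001d015779 under control was 1.31 (0.0081) with array weights, a value that supports nothing since the gene passed the filter through Y7-1 alone. The cause of these changes was not tested.

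Leaving out 1 library in turn kept 846 values, and 8 newly passed and 10 were lost. Here too the counts include the comparisons of Zm00001d015779 within Y478, which could not change, and its line differences, which support nothing. The ranges of the log2 fold changes were, for Zm00001d003401, -1.23 to -0.88 for drought in Y7-1 and -0.77 to -0.46 with ABA. For Zm00001d007446 they were 0.82 to 1.24 for drought in Y7-1, 0.96 to 1.28 for drought with ABA in Y478 and -1.02 to -0.60 for the line under moderate drought. For Zm00001d015779 they were -1.77 to -1.05 for drought with ABA in Y7-1, 0.66 to 1.56 for ABA in Y7-1 under drought, 0.73 to 1.62 for the line under control and 1.23 to 1.96 under moderate drought-exogenous ABA. Of the other 14-3-3 genes, the number called with drought in ABA-sprayed Y7-1 was 4, against 0 with the compared groups alone and 7 with array weights. Between the lines under moderate drought-exogenous ABA it was 3, against 6 with total-read scaling and 7 with array weights, and under control 0, against 3 with array weights. The drought average of Zm00001d015779 passed without Y7-1 moderate drought replicate 1 (-0.64, adjusted p = 0.0141) or Y7-1 control replicate 2 (-0.62, 0.0268).

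Most same-numbered libraries did not deviate together: 12 of 84 pairs of groups and numbers had a correlation over 0.1 (range -0.24 to 0.32). The highest was between Y7-1 moderate drought and Y7-1 control, replicate 2. Libraries with different numbers were not compared, so these values cannot show whether the replicate numbers pair the plants in part of the design. With the replicate number as a block no call of a member changed, for example -1.45 for Zm00001d007446 between the lines under control (adjusted p = 0.00166). Depth limits Zm00001d015779 and the other genes under about 1 FPKM, whose levels rest on few reads.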
